A study of Mus musculus with 56 samples.

Results

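Kidneys were compared between 2 groups of mice that were both 8 h into the phase without food, one in the dark and one in the light. The late-fast match sets daytime-restricted feeding (DRF) at zeitgeber time (ZT) 20 against nighttime-restricted feeding (NRF) at ZT8, where ZT0 is lights-on. Its members are the 8 libraries labelled with these regimens and times, 4 mice each, of 56 kidney libraries in 14 groups. All mice were female C57BL/6J, 9 weeks old, group housed under 12 h light and 12 h dark with water and normal chow. They entered the study at 7 weeks, had 7 days of free feeding, and then ate in the light phase (DRF) or in the dark phase (NRF) for 7 days. Tissue was whole adult kidney, and poly(A) RNA was sequenced. Feeding windows are taken as the whole light or dark phase, as the labels give no clock hours. The labels describe the replicates of a group as separate samples and do not say which mice shared a cage.

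The kidney clock is a loop in which the activators BMAL1 (gene Arntl), CLOCK and NPAS2 bind E-boxes and switch on Per, Cry, Nr1d1 and Dbp, whose products feed back on the activators. Feeding time can reset such clocks in peripheral tissues, while light sets the brain clock. Without food, kidney tubules burn more fatty acid under the nuclear receptor PPARA, and insulin-driven lipid synthesis drops. The match therefore holds the time since food constant, given the assumed feeding windows, and moves the light-dark phase by 12 h. Regimen differs between the 2 groups too, so within the match alone light-dark phase and regimen cannot be told apart.

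The 8 libraries held 23469498 to 25059308 reads over the genes of the table, and 417 to 761 genes had no read in a library. Replicates of a group correlated with r = 0.971 to 0.991 across genes, which are not independent, and no pair was within sampling noise of being one library. Proximal tubule markers gave the largest summed level of the marker lists, 58074 to 177341 TPM (reads scaled by gene length and library size, computed here from reads recovered from the deposited values), and thick ascending limb and distal tubule markers were present in every library, so the libraries carry the markers of the labelled tissue. Libraries of one group differed in their makeup. Renal medulla markers, 10 of 10 with reads, summed to 708, 376, 1576 and 1865 TPM in DRF ZT20 replicates 1 to 4 and to 1949, 526, 722 and 625 TPM in NRF ZT8. Adipose markers, 11 of 11 with reads, summed to 596, 87.0, 130.1 and 1253 TPM in DRF ZT20 and to 88.9, 57.1, 123 and 44.5 TPM in NRF ZT8. DRF ZT20 replicates 1, 3 and 4 were above every NRF ZT8 library for fat, replicate 3 by little. Blood markers were lowest in NRF ZT8 replicate 4 (864 TPM against 2069 to 4664 TPM in the others). Adrenal markers stayed at 11.6 to 17.1 TPM with reads for 5 of 11 genes. No proximal tubule, medulla, adipose, blood, adrenal or immune marker was called between the groups. Their median log2 differences were 0.03, 0.44, 2.03, 0.51, -0.11 and 0.08 in that order, beside -0.01 for all genes. With limma 3 of 11, 1 of 10, 3 of 10, 3 of 8, 0 of 2 and 2 of 14 had an unadjusted p under 0.05. Absence of a call therefore does not show equal makeup. Higher in DRF ZT20 were 3 of 12 podocyte and endothelial markers (Emcn, Kdr and Tek), 2 of 6 distal convoluted tubule markers (Pvalb and Calb1), 1 of 7 thick ascending limb markers (Cldn10) and 1 of 12 liver markers (Apoa2), and lower were 1 of 12 collecting duct markers (Scnn1g) and 1 of 12 liver markers (Fgg). Of all genes tested, 4.13% were higher and 8.19% lower. In bulk tissue fewer cells of a type and less RNA per cell cannot be told apart.

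**Figure D1:**
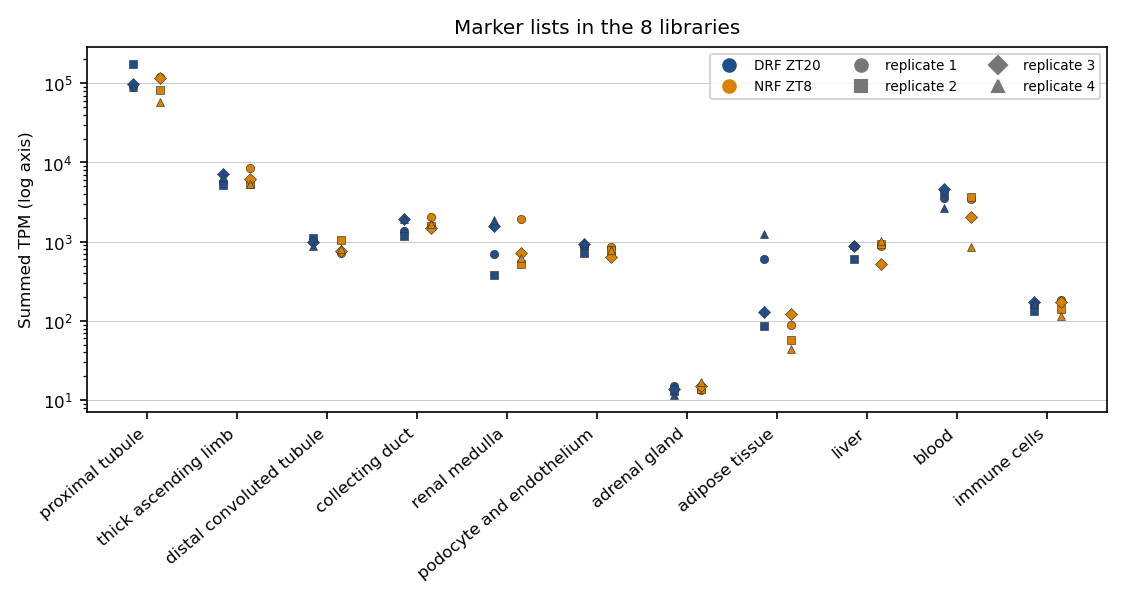
Summed TPM (log axis) of 11 marker lists in each of the 8 libraries, DRF ZT20 in blue and NRF ZT8 in orange, with symbols for replicates 1 to 4. Medulla markers spread from 376 to 1949 TPM within the match and adipose markers from 44.5 to 1253 TPM, while immune cell markers stayed between 114 and 183 TPM.

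Of 13382 genes tested, 1649 differed between DRF ZT20 and NRF ZT8 (12.3%), 553 higher in DRF ZT20 (4.13%) and 1096 lower (8.19%). Differences are on the log2(TPM + 1) scale, tested with limma over all 56 libraries at a Benjamini-Hochberg adjusted p under 0.05. The changes were mostly small: 141 of the called genes differed by at least 1 on the log2 scale, 35 higher and 106 lower, and for 10032 genes (75.0%) the 95% interval lay within 0.5 of 0. Fitted on the 8 libraries alone, 413 genes were called. Scaling moved the split: it was 799 higher and 1141 lower with median-of-ratios scaling, and 798 and 1048 with voom on the recovered reads. The split depended on single libraries: without DRF ZT20 replicate 2 it was 767 higher and 706 lower, without replicate 3 of that group 334 higher and 971 lower, and without replicate 4 387 higher and 1308 lower. Without the medulla-high libraries (DRF ZT20 replicates 3 and 4, NRF ZT8 replicate 1) it was 217 higher and 1505 lower, and without the adipose-high libraries (DRF ZT20 replicates 1 and 4) 204 higher and 946 lower. With the medulla marker level as a covariate, 2205 genes were called, 792 higher and 1413 lower. That covariate takes in the medulla only, and what part tissue makeup as a whole had in the calls was not tested.

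Clock genes took 10 of the 12 smallest adjusted p-values of the match, although both groups had gone equally long without food. All 3 called activators were higher in DRF ZT20, and 7 of 8 called repressors and 5 of 6 called output factors were lower. Of the lists, 3 of 5 tested activators, 8 of 13 repressors (median log2 difference -0.90) and 6 of 9 output factors (median -0.41) were called, beside 12.3% of all genes (median -0.01). Leaving out any 1 library left between 5 and 7 output factors, 8 or 9 repressors and 3 activators called.

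Arntl, which encodes BMAL1 (chr7:113207465-113314126), stood at 17.1, 11.8, 16.9 and 13.9 TPM in DRF ZT20 and at 2.09, 1.497, 1.88 and 1.18 TPM in NRF ZT8. The groups did not overlap, and the fitted difference was 5.96-fold (log2 difference 2.57 ± 0.18 (SE), adjusted p = 5.65e-15). Npas2, its partner, stood at 15.5, 8.38, 15.7 and 15.7 TPM against 2.43, 2.15, 1.43 and 0.901 TPM (log2 difference 2.44 ± 0.18 (SE), adjusted p = 9.65e-14). DRF ZT20 replicate 2 was the low one of its group, yet still above every NRF ZT8 library. Clock and Rora were not called, at 0.24 ± 0.11, adjusted p = 0.177 and 0.18 ± 0.10, adjusted p = 0.284.

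Dbp, a PAR bZIP factor that is a direct output of BMAL1 (chr7:45705088-45710203), is described first among the genes that were lower. It stood at 8.51, 11.2, 11.5 and 14.9 TPM in DRF ZT20 and at 145, 189, 171 and 185 TPM in NRF ZT8, 14.01-fold lower in DRF ZT20 (log2 difference -3.81 ± 0.32 (SE), adjusted p = 3.17e-12). Nr1d1, the REV-ERBα repressor (chr11:98767932-98775333), stood at 21.1, 15.5, 22.5 and 34.3 TPM against 198, 236, 191 and 220.5 TPM (log2 difference -3.17 ± 0.26 (SE), adjusted p = 8.71e-13). Every NRF ZT8 library was above every DRF ZT20 library for both genes. Reads of both were recovered in hundredths, so some were counted as fractions, and the reason was not tested. Nr1d2, the related REV-ERBβ, was 31.6 ± 7.30 TPM (SD, n = 4) against 105 ± 11.4 TPM (SD, n = 4) (log2 difference -1.72 ± 0.15 (SE), adjusted p = 1.46e-11). Ciart, a repressor of CLOCK-BMAL1, stood at 2.26, 1.59, 2.34 and 2.49 TPM against 15.2, 27.0, 16.5 and 49.3 TPM (log2 difference -3.00 ± 0.20 (SE), adjusted p = 5.65e-15), with the NRF ZT8 libraries spread over a wide range. The period genes were lower as well, Per1 at -1.34 ± 0.29, adjusted p = 9.49e-04, Per2 at -0.90 ± 0.18, adjusted p = 3.65e-04 and Per3 at -1.46 ± 0.21, adjusted p = 1.25e-06. Tef and Usp2, further outputs, were at -1.35 ± 0.12, adjusted p = 2.65e-11 and -1.36 ± 0.14, adjusted p = 8.00e-10.

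Genes that the clock drives in the opposite phase went the other way. Nfil3, the bZIP repressor that competes with DBP for D-boxes, stood at 34.6, 32.6, 39.3 and 39.4 TPM in DRF ZT20 and at 5.69, 8.27, 9.26 and 9.35 TPM in NRF ZT8 (log2 difference 2.05 ± 0.19 (SE), adjusted p = 3.00e-11). Cry1, the late-phase cryptochrome (chr10:85131700-85185064), stood at 25.3, 21.7, 23.9 and 20.2 TPM against 5.44, 4.09, 3.68 and 6.05 TPM (log2 difference 2.05 ± 0.20 (SE), adjusted p = 2.66e-10). Neither gene overlapped between the groups, and both were 4.15-fold and 4.13-fold higher in DRF ZT20 on the fitted scale. Cry1 was the one repressor called higher. Per2, given above, and Cry2, which was not called (-0.20 ± 0.13, adjusted p = 0.366), were chosen after their values were seen.

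**Figure D2:**
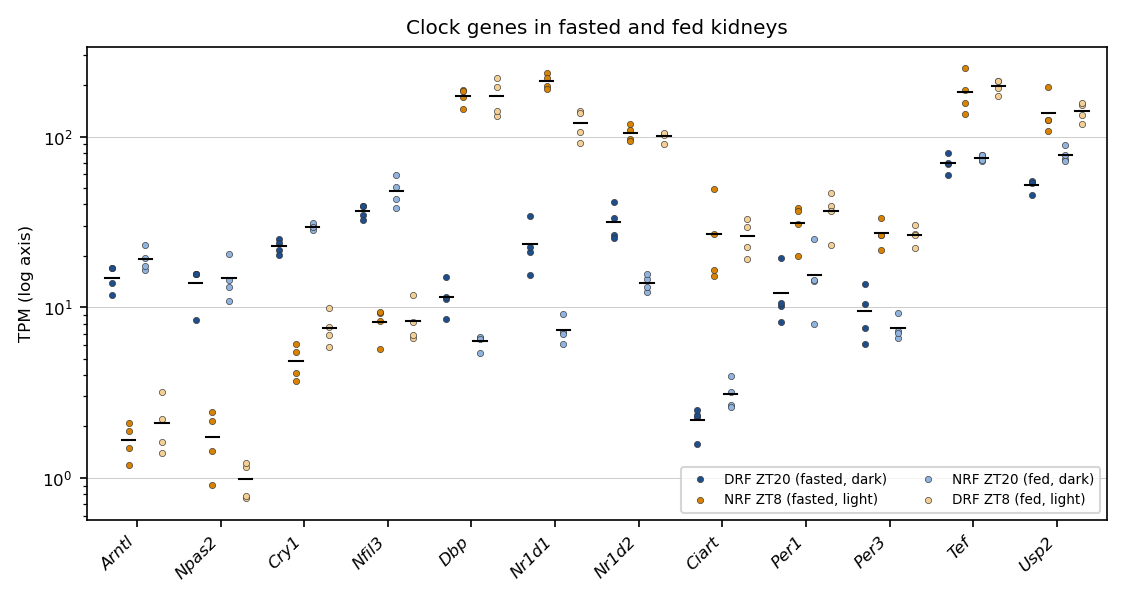
TPM (log axis) of 12 clock genes in each library of the late-fast match (DRF ZT20 and NRF ZT8, dark colours) and of the fed groups at the same times (NRF ZT20 and DRF ZT8, pale colours). Points are libraries and bars are means of 4. The dark ZT20 and ZT8 points do not overlap for any of the 12 genes.

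The same 12 h step was measured in fed mice, NRF ZT20 against DRF ZT8, the late-meal match, which shares no library with the late-fast match. The late-meal match called 1908 genes (14.3%), 741 higher at ZT20 (5.54%) and 1167 lower (8.72%) (or 1155 and 1070 with median-of-ratios scaling). In both matches 582 genes were called. Of these, 558 had the same direction, which is 33.8% of the late-fast calls and 29.2% of the late-meal calls, and 24 went opposite ways. Among the fed mice Dbp differed by -4.54 ± 0.32, adjusted p = 6.74e-15, Arntl by 2.72 ± 0.18, adjusted p = 5.99e-16 and Cry1 by 1.86 ± 0.20, adjusted p = 2.31e-09. The test of the difference between both steps was not passed by Dbp (0.73 ± 0.45, adjusted p = 0.458), Arntl (-0.15 ± 0.25, adjusted p = 0.849), Nr1d1 (0.67 ± 0.36, adjusted p = 0.37) or Ciart (-0.29 ± 0.29, adjusted p = 0.716). Nr1d2 passed it: the step was larger in fed mice (1.05 ± 0.21, adjusted p = 0.00293), with 13.9 ± 1.49 TPM (SD, n = 4) in NRF ZT20 and 100.4 ± 6.39 TPM (SD, n = 4) in DRF ZT8. In these 4 groups the difference between both steps equals the difference between regimens summed over ZT8 and ZT20, so food state and regimen cannot be told apart in it. This difference was called for 3 of 8 blood markers, all with higher values in the fasted step, beside 1.33% of all genes higher.

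Promoters of the clock genes are shown for 3 members in which the E-box letters CACGTG were found, because they are targets of the activators by textbook knowledge and were called in the match. The windows run from 250 bases before to 50 bases after the start site (RefSeq, GRCm38.p6), 5′ to 3′, with E-boxes in capitals.
Ciart (chr3:95882179-95882478, minus strand) held 3 E-boxes, Cry1 (chr10:85185005-85185304, minus strand) 1 and Tef (chr15:81802423-81802722, plus strand) 1.
Ciart: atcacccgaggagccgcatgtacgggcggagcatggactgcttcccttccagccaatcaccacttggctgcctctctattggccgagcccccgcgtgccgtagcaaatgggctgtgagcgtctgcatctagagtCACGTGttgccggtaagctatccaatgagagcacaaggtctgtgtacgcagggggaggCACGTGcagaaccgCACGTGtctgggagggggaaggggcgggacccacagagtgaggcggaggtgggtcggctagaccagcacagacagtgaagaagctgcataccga
Cry1: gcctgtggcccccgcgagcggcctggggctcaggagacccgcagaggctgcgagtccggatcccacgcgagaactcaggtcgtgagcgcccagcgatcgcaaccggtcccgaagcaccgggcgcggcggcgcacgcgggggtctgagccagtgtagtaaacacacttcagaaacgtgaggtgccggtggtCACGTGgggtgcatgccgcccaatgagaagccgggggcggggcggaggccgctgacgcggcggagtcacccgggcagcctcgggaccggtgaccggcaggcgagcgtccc
Tef: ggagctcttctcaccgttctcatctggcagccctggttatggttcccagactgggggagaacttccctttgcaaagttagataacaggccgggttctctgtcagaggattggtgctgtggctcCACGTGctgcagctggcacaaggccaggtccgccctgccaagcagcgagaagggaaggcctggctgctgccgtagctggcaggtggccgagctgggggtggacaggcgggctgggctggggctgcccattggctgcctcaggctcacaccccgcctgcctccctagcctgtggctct
The Ciart sites begin at -116, -58 and -44 from the start, the Cry1 site at -60 and the Tef site at -127. The Tef window also holds 1 D-box (TTANNTAA). E-boxes were present in 4 of 9 clock repressor genes with a window (Per1, Cry1, Bhlhe41 and Ciart), in 1 of 8 output factors (Tef) and in 0 of 4 activators, beside 11.5% of the genes tested and 7.15% of all 32851 windows, both strands searched. Ciart and Tef were lower and Cry1 higher in DRF ZT20, so the letters were shared by genes of both directions. Windows of Dbp, Nr1d1, Nfil3 and Arntl held none of the motifs searched, which says only that these letters are not in these windows.

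Interferon-induced genes formed the other large block, with every called list member lower in DRF ZT20 than in NRF ZT8. These genes answer type I interferon (Ifit, Oas and Irf families) or interferon gamma (the GTPases Igtp, Irgm and Gbp, and the machinery of antigen presentation). In the interferon response list 29 of 30 genes were lower and none higher (median -1.28), and in the interferon gamma list 24 of 26 were lower and none higher (median -1.54), beside 8.19% of all genes. In 22 and 23 of them the groups did not overlap with DRF ZT20 lower, beside 7.29% of all genes, and in none with DRF ZT20 higher, beside 4.18%. NRF ZT8 was the high group of the 4 studied here. Summed TPM of the response list was 1402, 720.1, 1886 and 1911 in NRF ZT8 replicates 1 to 4 and 407, 376, 521 and 568 in DRF ZT20. The fed groups at the same times stood at 455 to 521 (NRF ZT20) and 446 to 546 TPM (DRF ZT8). NRF ZT8 replicate 2 was the lowest of its group, and still above all 12 libraries of the other 3 groups.

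Igtp, an interferon-gamma-induced GTPase (chr11:58199556-58207591), stood at 268, 104, 901 and 736 TPM in NRF ZT8 and at 37.6, 42.9, 39.6 and 43.2 TPM in DRF ZT20. It was 8.86-fold lower in DRF ZT20 (log2 difference -3.15 ± 0.39 (SE), adjusted p = 7.34e-08), and the DRF ZT20 libraries lay within a narrow range while those of NRF ZT8 did not. Its exons overlap the annotation of Irgm2, which was lower too (-2.55 ± 0.30, adjusted p = 3.60e-08), and the counting is not stated to use strand, so reads of both cannot be told apart. Irgm1, a related GTPase (chr11:48861968-48871683), stood at 156, 79.8, 361 and 350.2 TPM against 31.7, 34.0, 34.3 and 31.6 TPM (log2 difference -2.56 ± 0.26 (SE), adjusted p = 8.00e-10). Irf7, a transcription factor of the interferon loop, stood at 72.0, 55.0, 121 and 101 TPM against 10.2, 11.7, 13.6 and 14.03 TPM (log2 difference -2.67 ± 0.28 (SE), adjusted p = 1.49e-09). For each of these 3 genes replicate 3 was the highest NRF ZT8 library and replicate 2 the lowest.

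Tgtp1, Gbp6, Gbp10, Gm4841 and the gene with Entrez ID 630751 were among the 12 lowest genes of the match, with log2 differences between -2.68 and -3.84. Their reads were recovered in hundredths, so some were counted as fractions and their split between genes is uncertain. Sharing of sequence with close copies was not tested. Iigp1, whose reads were whole, stood at 154, 54.8, 601 and 364 TPM against 19.8, 23.7, 24.1 and 26.6 TPM (log2 difference -3.09 ± 0.41 (SE), adjusted p = 4.09e-07). B2m, the light chain of MHC class I and the most abundant member, was 3864 ± 907 TPM (SD, n = 4) against 1769 ± 51.5 TPM (SD, n = 4) (log2 difference -1.10 ± 0.18 (SE), adjusted p = 1.51e-05). The MHC class II gene Cd74 was at -0.86 ± 0.21, adjusted p = 0.00297. Ifi27l2a, Gbp3 and Cxcl9 were the members of both lists that were tested and not called, at -1.10 ± 0.42, adjusted p = 0.0778, -0.82 ± 0.30, adjusted p = 0.0687 and -0.82 ± 0.35, adjusted p = 0.123, and the last 2 are outside the rule for named genes.

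**Figure D3:**
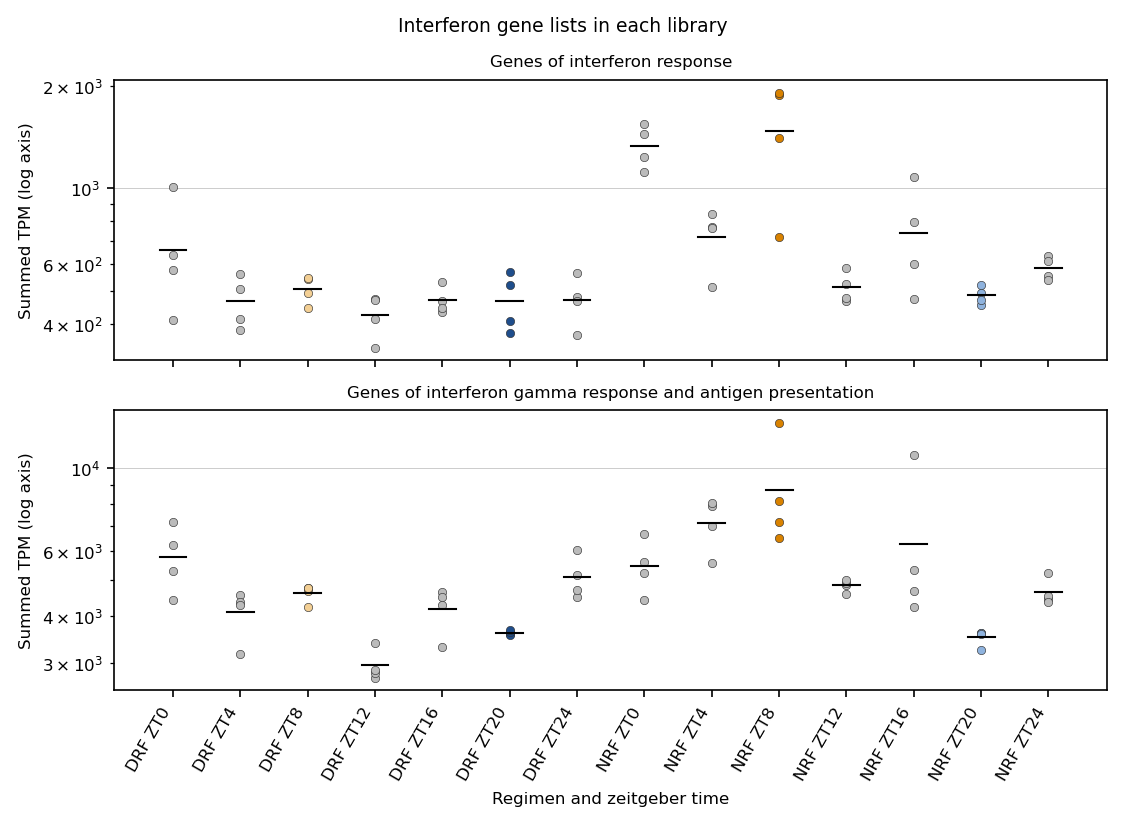
Summed TPM (log axis) of the interferon response list (top) and of the interferon gamma and antigen presentation list (bottom) in each of 56 libraries by group. Points are libraries, bars are means of 4, and the 4 groups of the matches are coloured. NRF ZT8 has the highest mean in both panels, with libraries between 720 and 1911 TPM in the top one, and NRF ZT0 lies at 1116 to 1543 TPM.

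The block rested on NRF ZT8 and varied within it. Replicates 1, 3 and 4 of that group, the interferon-high libraries, were picked for their levels of these same genes. Leaving them out leaves replicate 2 alone, so fewer calls follow from that choice and from the number of libraries. Replicate 2 still summed to 720 TPM for the response list, against 376 to 568 TPM in DRF ZT20. With any 1 library left out the number called was between 26 and 30 for the response list and between 22 and 25 for the gamma list. Immune cell markers, 21 of 21 with reads, summed to 132 to 175 TPM in DRF ZT20 and 114 to 183 TPM in NRF ZT8, ranges that overlap. In the fed step limma called 2 of 30 response genes higher and none lower, beside 5.54% and 8.72% of all genes, and none of the gamma genes (6 of 26 at an unadjusted p under 0.05). The difference between both steps was called, with lower values in the fasted step, for 24 response genes and 14 gamma genes, beside 3.42% of all genes (1.33% higher and 2.08% lower), and was -2.10 ± 0.39, adjusted p = 0.00135 for Irf7 and -2.58 ± 0.55, adjusted p = 0.0038 for Igtp. High levels were not seen in each NRF group: NRF ZT0 libraries summed to 1116 to 1543 TPM for the response list and NRF ZT24, the same clock time, to 538 to 635 TPM. What moved with these levels was not tested.

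Promoters of 3 of these genes are shown with the interferon-stimulated response element letters in capitals (GAAA, any 2 bases and GAAA again, read on either strand) (RefSeq, GRCm38.p6, same window).
Igtp (chr11:58199306-58199605, plus strand) held 1 site, Irgm1 (chr11:48871371-48871670, minus strand) 2 that overlap each other, and Ifit1 (chr19:34640639-34640938, plus strand) 2 that lie on the other strand.
Igtp: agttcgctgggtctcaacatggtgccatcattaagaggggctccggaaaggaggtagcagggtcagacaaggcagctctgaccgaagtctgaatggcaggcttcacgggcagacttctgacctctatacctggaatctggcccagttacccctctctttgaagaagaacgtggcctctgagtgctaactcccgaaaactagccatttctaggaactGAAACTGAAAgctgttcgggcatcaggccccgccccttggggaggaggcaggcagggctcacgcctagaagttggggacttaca
Irgm1: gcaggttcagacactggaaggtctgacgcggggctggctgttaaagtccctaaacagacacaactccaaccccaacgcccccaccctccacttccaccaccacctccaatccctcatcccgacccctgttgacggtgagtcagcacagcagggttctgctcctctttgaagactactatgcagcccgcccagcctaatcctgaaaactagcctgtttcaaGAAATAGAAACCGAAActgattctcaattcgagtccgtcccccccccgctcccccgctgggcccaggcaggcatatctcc
Ifit1: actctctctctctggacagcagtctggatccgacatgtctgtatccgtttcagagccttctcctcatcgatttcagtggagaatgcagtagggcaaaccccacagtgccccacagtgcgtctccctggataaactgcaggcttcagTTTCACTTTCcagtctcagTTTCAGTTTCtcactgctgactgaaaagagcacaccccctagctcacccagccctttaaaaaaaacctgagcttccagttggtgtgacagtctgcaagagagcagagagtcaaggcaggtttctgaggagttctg
The Igtp site begins at -34, the Irgm1 sites at -30 and -24, and the Ifit1 sites at -104 and -85 from the start. Ifit1 (chr19:34640871-34650009) stood at 55.6, 24.9, 72.5 and 103 TPM in NRF ZT8 and at 8.49, 9.59, 12.8 and 13.3 TPM in DRF ZT20 (log2 difference -2.28 ± 0.28 (SE), adjusted p = 5.50e-08). The letters were present in 13 of 22 response genes with a window (59.1%) and 8 of 18 gamma genes (44.4%), beside 3.44% of all windows and 3.82% of the genes tested. Among the genes lower in DRF ZT20 they were present in 9.97% of 883 with a window, and among those higher in 2.78% of 432.

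Most genes of fatty acid oxidation differed between fasted and fed mice, and 6 of 35 differed between the 2 fasted groups. Of 35 tested genes of the PPARA and fatty acid oxidation list, 24 were higher in fasted than in fed mice (mean of both matches' fasted groups against mean of both fed groups) and none lower, beside 18.5% of all genes higher and 9.93% lower (2478 and 1329 genes, or 2101 and 2112 with median-of-ratios scaling). In the late-fast match Pdk4 was higher and Ppargc1a, Acaa1a, Eci2, Acot12 and Vnn1 lower, 17.1% of the list beside 12.3% of all genes, with 4 to 7 called when any 1 library was left out (2 of the 5 lower without DRF ZT20 replicate 2) and 2 with the 8 libraries fitted alone. Both contrasts share the fasted libraries. Angptl4, an inhibitor of lipoprotein lipase that PPARA induces in fasting, stood at 155, 63.7, 115 and 61.9 TPM in DRF ZT20 and at 150.4, 107, 77.8 and 81.8 TPM in NRF ZT8 (-0.13 ± 0.42, adjusted p = 0.889, 95% interval -0.97 to 0.71), and at 4.26 to 22.8 TPM and 4.07 to 8.57 TPM in fed mice. The groups overlapped, and the interval leaves room for a sizeable difference either way. Slc25a20, the mitochondrial carnitine carrier, was tighter: 71.1, 59.7, 67.9 and 69.7 TPM against 68.9, 73.7, 69.6 and 64.4 TPM, -0.04 ± 0.09, adjusted p = 0.808 (95% interval -0.22 to 0.13), with 36.7 to 42.3 TPM and 31.4 to 32.1 TPM in fed mice. Cpt1a, the rate-limiting carnitine palmitoyltransferase, was 510.0 ± 35.1 TPM (SD, n = 4) against 590.1 ± 51.1 TPM (SD, n = 4) (-0.21 ± 0.10, adjusted p = 0.182).

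Among the 8 genes of largest fasted-against-fed difference whose late-fast interval lay within 0.5 of 0, 6 were higher in fasted mice and 2 lower. Lgals4, a galectin of epithelia, stood at 51.4, 29.5, 47.8 and 42.6 TPM against 55.0, 43.7, 38.4 and 46.3 TPM in the fasted groups and at 12.1 to 14.5 TPM and 10.2 to 12.3 TPM in the fed groups. Acot2, a mitochondrial acyl-CoA thioesterase that shares reads with Acot1, was 105 ± 17.2 TPM (SD, n = 4) against 117 ± 15.3 TPM (SD, n = 4) (-0.17 ± 0.13, adjusted p = 0.462). Slc25a22, a glutamate carrier, and 9530057J20Rik differed by -0.03 ± 0.13, adjusted p = 0.93 and -0.07 ± 0.17, adjusted p = 0.851 between the fasted groups. Cirbp, the cold-inducible RNA-binding protein, was at -0.20 ± 0.14, adjusted p = 0.377, although its groups did not overlap (62.1 to 69.3 TPM and 69.8 to 89.6 TPM). Tfrc, the transferrin receptor, and Nat8f7 were lower in fasted than in fed mice, at -1.01 ± 0.11, adjusted p = 1.16e-09 and -1.06 ± 0.14, adjusted p = 1.26e-07, and at -0.18 ± 0.15, adjusted p = 0.493 and 0.09 ± 0.20, adjusted p = 0.834 between the fasted groups. These 8 were picked for small late-fast differences, so their late-fast values are a description.

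**Figure D4:**
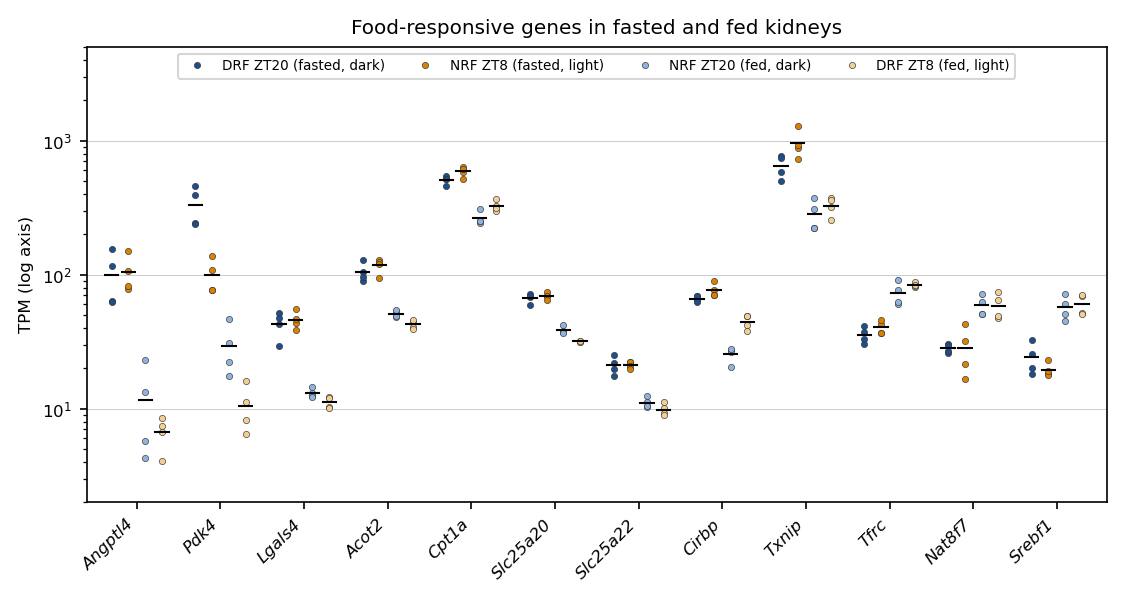
TPM (log axis) of 12 food-responsive genes in each library of the fasted groups (DRF ZT20 and NRF ZT8, dark colours) and the fed groups (NRF ZT20 and DRF ZT8, pale colours). Points are libraries and bars are means of 4. Fasted libraries lie together and apart from fed ones for Angptl4, Lgals4, Acot2, Slc25a20 and Slc25a22, while Pdk4 also differs between the fasted groups.

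Pdk4, the kinase that blocks pyruvate dehydrogenase in fasting, differed by food and by phase. It stood at 455, 241, 393 and 237 TPM in DRF ZT20 and at 137, 76.1, 77.0 and 108 TPM in NRF ZT8, 3.27-fold higher in DRF ZT20 (log2 difference 1.71 ± 0.33 (SE), adjusted p = 2.43e-04). In fed mice it was 17.5 to 47.0 TPM in NRF ZT20 and 6.43 to 15.9 TPM in DRF ZT8, again higher at ZT20 (1.39 ± 0.33, adjusted p = 0.00255). The fasted libraries lay above the fed ones in both phases, with a fasted-against-fed difference of 3.32 ± 0.23, adjusted p = 1.05e-14. Slc16a1, the transporter of lactate and ketone bodies, was also higher at ZT20 in both states: 122, 77.7, 98.4 and 97.0 TPM against 37.7, 37.9, 26.9 and 27.1 TPM (log2 difference 1.58 ± 0.18 (SE), adjusted p = 7.42e-09), and 2.14 ± 0.18, adjusted p = 7.47e-13 in fed mice.

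Genes outside the clock lists stood at the top of the higher list as well. Ypel2 stood at 54.3, 41.5, 52.6 and 58.0 TPM against 14.4, 12.3, 14.2 and 13.1 TPM (log2 difference 1.85 ± 0.13 (SE), adjusted p = 5.65e-15). Pnrc1, a nuclear receptor coactivator, stood at 371, 295, 329 and 290.0 TPM against 119, 107, 127 and 134 TPM (log2 difference 1.39 ± 0.13 (SE), adjusted p = 3.33e-11). Dtx4, a ubiquitin ligase, was 25.4 ± 3.48 TPM (SD, n = 4) against 10.6 ± 0.909 TPM (SD, n = 4) (log2 difference 1.18 ± 0.15 (SE), adjusted p = 8.25e-08). For these 3 the groups were well apart, and each was also higher at ZT20 in fed mice, by 1.80 ± 0.13, adjusted p = 6.74e-15, 0.80 ± 0.13, adjusted p = 1.10e-05 and 1.37 ± 0.15, adjusted p = 2.14e-09. Loxl4, a lysyl oxidase of the matrix, was 22.1 ± 4.85 TPM (SD, n = 4) against 6.24 ± 3.58 TPM (SD, n = 4) (log2 difference 1.76 ± 0.38 (SE), adjusted p = 8.60e-04). Nat8f5 and Slc22a28 were higher by 1.5 ± 0.36, adjusted p = 0.00325 and 1.19 ± 0.27, adjusted p = 0.00161, and neither was called with the medulla-high libraries left out. Nat8f5 was also not called with the adipose-high libraries left out. Apoa2, an apolipoprotein also on the liver marker list, stood at 101, 86.6, 118 and 92.4 TPM against 45.6, 59.2, 33.5 and 46.4 TPM (log2 difference 1.11 ± 0.33 (SE), adjusted p = 0.0188). That call was lost without DRF ZT20 replicate 3 (1.03, adjusted p = 0.0595) and without NRF ZT8 replicate 3 (0.97, adjusted p = 0.0719). It was also lost with the medulla-high or the adipose-high libraries left out.

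A few heat shock genes were slightly higher in DRF ZT20. Of 21 heat shock genes, 6 were higher in DRF ZT20 and none lower (median 0.10), beside 4.13% of all genes higher, and 11 were lower and none higher in fasted than in fed mice, beside 9.93% and 18.5% of all genes. In the fed step 8 were higher and 1 lower at ZT20 (median 0.34), beside 5.54% and 8.72% of all genes. The difference between both steps was called for 3, all lower in the fasted step, beside 2.08% of all genes. Hsp90aa1, the inducible HSP90, stood at 469, 386, 492 and 477 TPM against 352, 298, 293 and 316 TPM (log2 difference 0.53 ± 0.13 (SE), adjusted p = 0.00359). Fkbp4, an HSP90 co-chaperone, stood at 290.1, 264, 266 and 262 TPM against 193, 206, 222 and 223 TPM (log2 difference 0.36 ± 0.06 (SE), adjusted p = 6.25e-05). Neither gene overlapped between the groups, while Hspa8, the most abundant heat shock member, was at -0.07 ± 0.13, adjusted p = 0.785. Without the adipose-high libraries (DRF ZT20 replicates 1 and 4) the count was 2, without the 3 interferon-high NRF ZT8 libraries 1, and with the 8 libraries fitted alone 2. Over the whole list, the heat shock element letters GAANNTTC were present in 11 of 17 genes with a window (64.7%), beside 7.86% of all windows. Among the genes called higher that had a window, Fkbp4 and Hspe1 held them, and Serpinh1 and Ahsa1 did not.

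Endoplasmic reticulum (ER) chaperones gave 5 higher (Hsp90b1, Calr, Pdia3, Pdia6 and Sdf2l1) and 1 lower of 23 (median 0.13), beside 4.13% and 8.19% of all genes. Sdf2l1, an ER stress chaperone, stood at 37.9, 27.5, 34.3 and 22.6 TPM against 12.8, 11.01, 19.3 and 14.5 TPM (log2 difference 1.04 ± 0.19 (SE), adjusted p = 7.39e-05). Herpud1, a factor of ER-associated degradation, went the other way, at 314, 231, 249.6 and 272 TPM against 422, 527, 407 and 786 TPM (log2 difference -0.96 ± 0.14 (SE), adjusted p = 1.72e-06). Both stayed called under every alternative, while Hsp90b1 was not called with the medulla-high libraries left out. In fed mice 16 were higher and 1 lower at ZT20, beside 5.54% and 8.72% of all genes. The difference between both steps was called for 7 of 23, all lower in the fasted step, beside 2.08% of all genes, Creld2, Hspa5 and Hyou1 among them (-1.31 ± 0.19, adjusted p = 5.94e-05, -0.85 ± 0.21, adjusted p = 0.0132 and -0.67 ± 0.19, adjusted p = 0.0407). Hspa5, which encodes BiP, was 365 ± 20.6 TPM (SD, n = 4) against 294 ± 28.4 TPM (SD, n = 4) in the fasted groups and 704 ± 27.3 TPM (SD, n = 4) against 314 ± 23.3 TPM (SD, n = 4) in the fed groups.

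Lipid synthesis genes were called in both directions. Of 24 cholesterol genes Pmvk was higher and Mvk lower (median -0.13), 8.33% of the list beside 12.3% of all genes, and with 1 library left out between 1 (without DRF ZT20 replicate 1 or NRF ZT8 replicate 4) and 4 (without DRF ZT20 replicate 4) were called. In fasted against fed mice 13 were lower and 1 higher, beside 9.93% and 18.5% of all genes (1329 and 2478 genes, or 2112 and 2101 with median-of-ratios scaling). Srebf1, the regulator of fatty acid synthesis, was 24.1 ± 6.43 TPM (SD, n = 4) against 19.4 ± 2.53 TPM (SD, n = 4) (0.27 ± 0.16, adjusted p = 0.294), with a fasted-against-fed difference of -1.40 ± 0.11, adjusted p = 2.55e-13. Of 17 fatty acid synthesis genes 2 were higher (Scd1 and Me1) and Acss2 lower, 17.6% of the list, and the count was 1 without DRF ZT20 replicate 1, 2 or 4 or NRF ZT8 replicate 2 or 3, and 0 without NRF ZT8 replicate 4. For Scd1, the stearoyl-CoA desaturase, the value was 1191, 1089.6, 1045 and 2539 TPM against 847, 717, 576 and 529.7 TPM (log2 difference 1.05 ± 0.36 (SE), adjusted p = 0.0443). DRF ZT20 replicate 4, which was also highest in adipose markers, was far above the rest, and without it the difference was 0.75, adjusted p = 0.19. The call was also lost without DRF ZT20 replicate 1 or NRF ZT8 replicate 2, 3 or 4.

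The called insulin-responsive and glucose genes were lower in DRF ZT20. The FOXO and insulin list had 4 of 19 lower and none higher, gluconeogenesis 3 of 12 lower and none higher, and the glucocorticoid list 4 of 16 lower and 1 higher (Pdk4, described above), beside 8.19% of all genes lower. Klf15, a fasting-induced and clock-driven factor of amino acid use, stood at 55.5, 46.9, 47.1 and 56.1 TPM against 93.0, 153, 85.5 and 136 TPM (log2 difference -1.13 ± 0.18 (SE), adjusted p = 1.60e-05). Igfbp1, an insulin-repressed binding protein, stood at 31.4, 39.2, 34.0 and 33.5 TPM against 59.3, 94.8, 68.5 and 80.4 TPM (log2 difference -1.09 ± 0.22 (SE), adjusted p = 3.62e-04). Neither overlapped between the groups, and both were lower at ZT20 in fed mice too (-0.82 ± 0.18, adjusted p = 0.00138 and -1.67 ± 0.22, adjusted p = 2.06e-07). Gpt2, an alanine aminotransferase, was 27.9 ± 3.03 TPM (SD, n = 4) against 43.2 ± 7.79 TPM (SD, n = 4) (log2 difference -0.60 ± 0.13 (SE), adjusted p = 0.00123). Pck1, the rate-limiting enzyme of glucose production, and G6pc were not called (-0.32 ± 0.21, adjusted p = 0.362 and 0.21 ± 0.21, adjusted p = 0.6). Gluconeogenesis had 1 gene called without DRF ZT20 replicate 2 and 1 with the 8 libraries fitted alone, where the FOXO list had 2. The glucocorticoid list had 3 called without NRF ZT8 replicate 4.

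The called sodium, glucose and amino acid transport genes were lower in DRF ZT20. Sodium transport gave 3 lower of 19 (Slc9a3 and Scnn1g among them) and glucose and amino acid transport 3 lower of 14 (Slc2a5, Slc5a1 and Slc6a20a), which is 15.8% and 21.4% beside 8.19% of all genes lower. With limma no potassium or chloride channel of 11 and no osmolyte gene of 8 was called, with 3 and 0 at an unadjusted p under 0.05 and none with voom on the recovered reads. Slc9a3, the proximal sodium-proton exchanger NHE3 (chr13:74121457-74169442), stood at 74.2, 53.5, 63.7 and 70.3 TPM in DRF ZT20 and at 117, 124, 116 and 133 TPM in NRF ZT8. It was 1.87-fold lower in DRF ZT20 (log2 difference -0.90 ± 0.11 (SE), adjusted p = 4.61e-08), with no overlap, and lower at ZT20 in fed mice as well (-0.57 ± 0.11, adjusted p = 1.97e-04). Slc2a5, a fructose transporter of the proximal tubule, stood at 114, 99.3, 89.4 and 96.3 TPM against 129, 192, 143 and 268 TPM (log2 difference -0.82 ± 0.15 (SE), adjusted p = 9.95e-05). Avpr1a, a vasopressin receptor, was 22.7 ± 0.819 TPM (SD, n = 4) against 11.6 ± 2.01 TPM (SD, n = 4) (log2 difference 0.92 ± 0.14 (SE), adjusted p = 6.48e-06), and Calb1, the calcium buffer of the distal tubule, 461 ± 66.3 TPM (SD, n = 4) against 265 ± 65.5 TPM (SD, n = 4) (log2 difference 0.81 ± 0.17 (SE), adjusted p = 6.47e-04). Calb1 is also on the distal convoluted tubule marker list. Vdr, the vitamin D receptor, was not called in the match (0.04 ± 0.12, adjusted p = 0.879, 95% interval -0.20 to 0.28) but was higher in fasted than in fed mice (0.79 ± 0.09, adjusted p = 1.70e-09). Without NRF ZT8 replicate 1, the medulla-high library of its group, the sodium and the glucose lists each gave 5 lower and the channel list 2. Other omissions lost calls. Scnn1g was not called without DRF ZT20 replicate 1 or NRF ZT8 replicate 2, nor with the medulla-high or the adipose-high libraries left out. Slc6a20a lost its call without NRF ZT8 replicate 2 or 4 and with the adipose-high libraries left out, and Slc5a1 without NRF ZT8 replicate 3. Slc9a3 stayed called under every alternative.

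**Figure D5:**
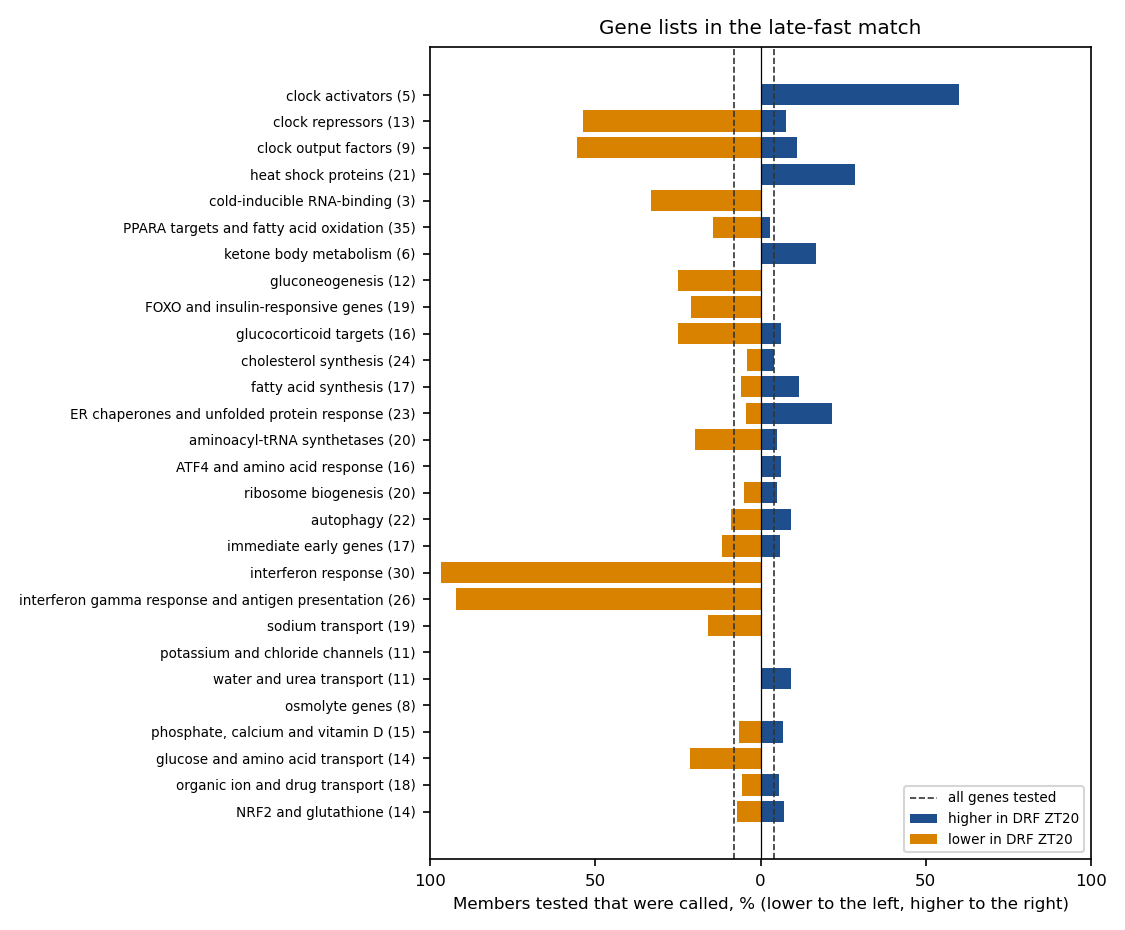
Share of tested members (percent) of 28 gene lists called higher (right, blue) or lower (left, orange) in DRF ZT20 than in NRF ZT8, with the number tested in brackets and dashed lines at the shares of all genes, 4.13% higher and 8.19% lower. Both interferon lists reach beyond 90% to the left, and clock lists reach beyond 50% on one side.

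Lists of growth and protein synthesis were called to different extents. Aminoacyl-tRNA synthetases gave 1 higher and 4 lower of 20, autophagy genes 2 and 2 of 22, ribosome biogenesis genes 1 and 1 of 20, and ATF4 targets 1 and 0 of 16, beside 4.13% higher and 8.19% lower of all genes. Of the synthetases 25.0% were called, of the autophagy genes 18.2% and of the ATF4 targets 6.25%, beside 12.3% of all genes. With the 8 libraries fitted alone, limma called no gene of these 4 lists or of the fatty acid synthesis, glucose and amino acid transport and NRF2 lists, while 20 response and 17 gamma genes of the interferon lists were called. The counts also moved with single libraries. Synthetases had 2 called without NRF ZT8 replicate 4 and 3 without DRF ZT20 replicate 2, and autophagy genes 1 without DRF ZT20 replicate 1 or NRF ZT8 replicate 2 and 2 without DRF ZT20 replicate 2. Ribosome genes had 1 called without DRF ZT20 replicate 1 or 3 or NRF ZT8 replicate 2 or 3, and ATF4 targets 0 without DRF ZT20 replicate 1 or 4 or NRF ZT8 replicate 2, 3 or 4 and 2 without DRF ZT20 replicate 2. Gabarapl1, an autophagy gene, was 1721 ± 67.4 TPM (SD, n = 4) against 1465 ± 126 TPM (SD, n = 4) and was not called (0.24 ± 0.10, adjusted p = 0.119), but its step differed from that of fed mice (0.68 ± 0.14, adjusted p = 0.00308). Myc, a growth regulator, stood at 19.4, 12.7, 18.8 and 19.8 TPM against 11.1, 8.63, 8.14 and 10.04 TPM (log2 difference 0.82 ± 0.14 (SE), adjusted p = 4.04e-05), without overlap. Atf3, a stress-induced factor, was at 1.87, 0.999, 1.86 and 2.12 TPM against 4.04, 3.36, 4.44 and 4.33 TPM (log2 difference -0.91 ± 0.18 (SE), adjusted p = 3.65e-04). Rbm3, a cold-inducible RNA-binding protein, stood at 74.8, 74.7, 79.0 and 87.5 TPM against 125, 129.7, 88.0 and 135 TPM (log2 difference -0.57 ± 0.11 (SE), adjusted p = 1.21e-04) and was higher in fasted than in fed mice (0.59 ± 0.07, adjusted p = 5.48e-08).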

How the data were processed

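Kidney RNA of 56 mice in 14 groups was sequenced (BGISEQ-500, paired ends). The authors deposited 1 table of 17027 genes by 56 libraries under the name TPM. The submitters' processing notes name HISAT2, Bowtie2 and RSEM and the builds mm10 and GRCm38.p6, with no versions. Judged from the values alone, the deposited numbers are a score and not TPM: they behave as log2(CPM + 1) divided by gene length and scaled to a library sum of 999145 to 999753. Reads were recovered from them with GENCODE M21 exon lengths (GRCm38) or a length search, within a tolerance of 0.1 read (0.002 for hundredths). They came out whole for 14349 genes (84.27%) and in hundredths for 1304 (7.66%), with a further 756 and 187 by length search, while 431 genes gave none and were left out. TPM was then computed from the recovered reads.

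Groups came from the labels. One NRF ZT24 column carries a number (5) that no title of its group has, so it was used as a library of that group without a replicate number, and it is outside both matches. The main test was limma 3.58.1 (R 4.3.3) with a trended prior on log2(TPM + 1) of all 14 groups, 42 residual degrees of freedom, genes of mean TPM of at least 1, and a Benjamini-Hochberg adjusted p under 0.05. No covariate was used. P-values rest on the spread between samples of a group, pooled over all 14 groups. For interferon-induced genes that pooled spread understates the spread within NRF ZT8. The summed response list had an SD of 558 TPM there and of 28.6 to 266 TPM in the other groups. Named genes were the 12 highest and 12 lowest called genes with mean TPM of at least 10 and no overlap, up to 6 called members a list, the most abundant members of main lists, and the 8 genes with the largest fasted-against-fed difference among those whose late-fast interval lay within 0.5 of 0. The members and lists were chosen with earlier results of these data known. Alternatives were median-of-ratios scaling, a pseudocount of 0.1, other filters, a minimum fold of 1.5, the compared groups alone, a replicate block, the deposited values, voom, and each library left out. After seeing the data, 4 more were added: medulla-high, interferon-high or adipose-high libraries left out, and the medulla marker level as a covariate. A few genes are not reported here by name, though list counts include them. The fit was also run on simulated counts with the same spread for every gene and no variation in tissue makeup. That run does not show how the fit behaves with the variation seen here. Counting error is small at 23469498 to 25059308 reads a library, and the spread between mice sets the precision. Tables were made with Python 3.11.15 and scipy 1.17.1.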

Additional observations from a re-analysis of the deposited data

Results flagged for a closer look

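Single libraries stood far from the other 3 of their group, by a gap test with a 95% critical value that chance alone passes in about 1 in 20 groups. This held in 18 of 364 groups of 4 tested (4.95%), a share near that of chance. In DRF ZT20 replicate 2 this held for Npas2 (8.38 TPM), Hsp90ab1 (1142 TPM), Gpt2 (32.4 TPM) and Myc (12.7 TPM), for summed proximal tubule markers (177341 TPM) and for summed liver markers (602 TPM). In DRF ZT20 replicate 1 it held for Fkbp4 (290.1 TPM) and Cebpb (31.2 TPM), and in replicate 4 for Scd1 (2539 TPM). In NRF ZT8 replicate 1 Scd2 (83.8 TPM), Vdr (261 TPM) and summed renal medulla markers (1949 TPM) stood apart, and in replicate 2 Sdc4 (506 TPM). NRF ZT8 replicate 3 was apart for the interferon-induced genes Gbp10 (92.1 TPM) and B2m (5211 TPM), and replicate 4 for Insig1 (87.0 TPM), Elovl6 (53.4 TPM) and Scnn1a (213 TPM).

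The late-fast step differed from the late-meal step for 28 of the named genes, by limma's test of that difference at an adjusted p under 0.05. Values are the log2 step in fasted mice minus that in fed mice. Interferon-induced genes had lower values in the fasted step: 630751 -3.15 (an Entrez ID with no symbol), Tgtp1 -2.76, Igtp -2.58, Iigp1 -2.50, Gbp6 -2.46, Gm4841 -2.29, Irgm2 -2.21, Irgm1 -2.17, Ifit1 -2.13, Irf7 -2.10, Bst2 -1.54, Oasl1 -1.53 and Gbp2 -1.52. Chaperones of the endoplasmic reticulum and the cytosol were lower too, at Creld2 -1.31, Hspa5 -0.85, Hyou1 -0.67, Chordc1 -0.56 and Serpinh1 -0.42. The same held for the sterol gene Msmo1 -0.95, the stress factor Atf3 -0.96, the tRNA synthetases Wars -0.61 and Rars -0.28, and the sodium channel subunit Scnn1a -0.40. Higher in the fasted step were Apoa2 1.73, the fatty acid hydroxylase Cyp4a14 1.71, the clock gene Nr1d2 1.05, and the autophagy genes Gabarapl1 0.68 and Wipi1 0.59. In these groups food state and regimen cannot be told apart in this difference.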

How the results depend on the processing

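The count of 1649 genes in the late-fast match was 441 with a minimum fold of 1.5, 413 with the compared groups fitted alone and 325 with the interferon-high libraries left out. With 1 library left out it lay between 1167 (without NRF ZT8 replicate 4) and 1736 (without NRF ZT8 replicate 1). The late-meal count of 1908 was 317 with the minimum fold. The count for the difference between both steps, 457, was 230 with the minimum fold, 728 with median-of-ratios scaling, 144 with the compared groups alone, 51 without the interferon-high libraries and 1008 with the medulla covariate, and lay between 339 and 491 with 1 library left out. The fasted-against-fed count of 3807 was 330 with the minimum fold, 2383 without the medulla-high and 1632 without the interferon-high libraries, and lay between 3214 and 4511 with 1 library left out. A minimum fold and fewer libraries lower counts by construction, and the cause of the other changes was not tested. Without the interferon-high libraries, NRF ZT8 rests on 1 library. Of 164 named genes, 90 were called in the late-fast match, and 32 of these stayed called under every alternative run for them. One sign turned: Wars went from -0.32 to 0.0363 (adjusted p = 0.927) without the interferon-high libraries. With a replicate block the counts were 1583 in the late-fast match, 1799 in the late-meal match, 396 for the difference between both steps and 3655 for fasted against fed. Same-numbered DRF ZT20 and NRF ZT8 libraries correlated at -0.469, 0.436, -0.222 and -0.251, so the numbers did not pair them. Depth limits only genes of few reads.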

Other observations

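Interferon-induced genes varied over the series as a whole. The summed response list was at 1116 to 1543 TPM in NRF ZT0, 512 to 840 TPM in NRF ZT4 and 473 to 1082 TPM in NRF ZT16, and at 412 to 1008 TPM in DRF ZT0. It was lowest in a DRF ZT12 library at 340 TPM. The gamma and antigen presentation list reached 10819 TPM in an NRF ZT16 library and stood at 5557 to 8071 TPM in NRF ZT4, against 6470 to 13205 TPM in NRF ZT8. NRF ZT0 libraries, high for the response list, were at 4430 to 6651 TPM for the gamma list.

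The xenobiotic and antioxidant genes of the NRF2 list gave 1 higher (Hmox1, a heme-degrading enzyme) and 1 lower (Nqo1, a quinone reductase) of 14 in the late-fast match, 14.3% beside 12.3% of all genes, with 1 called without DRF ZT20 replicate 1 or NRF ZT8 replicate 3 and 0 without NRF ZT8 replicate 4. Organic ion transporters gave Slc22a7 higher and Slc22a4 lower of 18, 11.1% and near the same background, with 1 called without DRF ZT20 replicate 2 or NRF ZT8 replicate 2 or 4, 4 without NRF ZT8 replicate 1 and 5 without NRF ZT8 replicate 3.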
